A study of Mus musculus with 58 samples.

Results

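The genes described here are 7 genes of fatty acid uptake, activation, elongation and desaturation together with the receptor gene of the pathway, namely Ppara, Slc27a2, Fabp1, Acsl1, Elovl1, Elovl6 and Fads2. They were chosen by the gene column of the BMAL1 peak lists, where each has at least 1 peak, so the presence and number of their peaks are given as a description without a test. They held 11 of the 1254 BMAL1 peaks of mouse liver and 1 of the 463 BMAL1 peaks of NIH3T3 cells, and they are 7 of the 1137 genes annotated in either list. No CLOCK peak of either CLOCK list had its centre within 5 kb of any of these peaks.

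BMAL1 and CLOCK are the paired transcription factors of the activating arm of the circadian clock, and together they bind the E-box, a short element with the letters CACGTG. The liver takes up fatty acids from the blood, binds them in the cytosol, links them to coenzyme A, and then burns, lengthens, desaturates or stores them. PPARalpha, encoded by Ppara, is a nuclear receptor that fatty acids activate and that raises transcription of genes for fatty acid oxidation, above all during fasting. Fatty acid handling in the liver is known to follow the daily cycle of feeding and fasting.

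The study asked how BMAL1 sites and targets differ between a tissue and a cell line. For the liver BMAL1 list the authors processed again 2 libraries of an earlier study, taken at zeitgeber time 6, that is in the light phase, and the age and strain of those mice were not among the labels used here. The liver CLOCK list belonged to 1 sample from C57/BL6 mice of 12 to 14 weeks, with food always available, and its label calls it pooled without a time of day. The NIH3T3 lists came from a mouse embryonic fibroblast line whose clocks had been set by 30 minutes in 100 nM dexamethasone, with 7 BMAL1 libraries taken 12 to 38 h and 6 CLOCK libraries taken 18 to 38 h after it. The name of the NIH3T3 BMAL1 list gives 20 h, and which of the 7 libraries it was called on is unknown. Several immunoprecipitations were joined for each library. The 16 NIH3T3 and 24 liver RNA samples of the series, its 2 RNA polymerase II libraries and its 2 input libraries were not analysed here. Peak lists hold no expression values, so the labels could not be set against cell type markers, and which liver cells carried a peak is unknown. The lists hold positions without a height, a score or a value per library, so depth is unknown and no replicate error can be given. Intervals below are 95% Clopper-Pearson intervals, which cover counting error over peaks only, and peaks of the same gene are not independent. Starts and ends are mm9 positions counted from 1.

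Ppara carried 3 liver BMAL1 peaks, which surround 2 start sites that the authors annotated to it. The first peak, at chromosome 15, 85562428 to 85562477, lay 2961 bp upstream of the first start site. The second, at 85601807 to 85601856, lay 813 bp upstream of the other start site, and the last, at 85605776 to 85605825, lay 3156 bp downstream of that same site. The distances place the start sites 37231 bp apart. The first and second peaks were 39379 bp apart and the second and the last 3969 bp apart, so the 3 entries are separate sites and not repeats of 1 site. The NIH3T3 BMAL1 list had none of them, and its nearest peak lay 809 kb from the first Ppara peak. Genes with 3 or more peaks were 2 of the 7 fatty acid genes, against 42 of the 985 genes of the liver list (4.26%). Both genes are described with all their peaks, and with 7 genes the count is too small to set it apart from that share.

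Among the uptake genes, Slc27a2 and Fabp1 each had 1 liver peak and none in NIH3T3 cells, at very different distances from the gene. Slc27a2 encodes FATP2, a transport protein of the hepatocyte membrane that also activates very long-chain fatty acids. Its peak, at chromosome 2, 126378672 to 126378721, lay 553 bp downstream of the start site. Fabp1 encodes the fatty acid binding protein of liver cytosol. Its peak, at chromosome 6, 71122873 to 71122922, lay 26924 bp upstream of the start site, farther than 84.4% of all liver BMAL1 peaks. No other liver BMAL1 peak with a gene stood near it, the nearest being annotated to St3gal5 at 968 kb. The annotation of so distant a peak to Fabp1 rests on the authors' gene column alone.

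Acsl1 encodes a long-chain acyl-CoA synthetase, which links fatty acids to coenzyme A and so commits them to oxidation or to lipid synthesis. Its 3 liver peaks were spread over 114865 bp of chromosome 8. The first and second, at 47470405 to 47470454 and at 47500290 to 47500339, lay 85966 and 56081 bp upstream of the same start site. The last one, at 47585270 to 47585319, lay 7108 bp downstream of another start site, 21791 bp from that of the others. No Acsl1 peak was therefore within 1 kb of an annotated start site, unlike the middle peak of Ppara. The first Acsl1 peak was farther from its start site than 95.5% of liver peaks. The NIH3T3 list had no peak annotated to Acsl1, and its nearest BMAL1 peaks to the 3 sites were 1610 to 1725 kb away.

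The elongases Elovl1 and Elovl6 had the closest peaks of the group, both on the start site itself. Elovl1 lengthens very long-chain acyl-CoAs in most tissues, while Elovl6 lengthens palmitate and is a lipogenic gene of the liver. The Elovl1 peak, at chromosome 4, 118100801 to 118100887, had its centre 30 bp downstream of the start site and covered the stretch of about 13 bp before to 73 bp after it. It was the same entry, with the same start and end, in both lists, and Elovl1 was the single gene of the 7 with an NIH3T3 peak. The Elovl6 peak, at chromosome 3, 129235287 to 129235336, had its centre 7 bp downstream of the start site and covered about 18 bp before to 31 bp after it. It stood in the liver list alone, and the nearest NIH3T3 BMAL1 peak was 1752 kb away. These paralogues thus had liver BMAL1 peaks at matching places, and differed in whether the NIH3T3 list held the site. The Elovl1 entry is among the first 263, which are identical in both lists. How these came about is unknown, so the difference between the paralogues is not read as one of binding in NIH3T3 cells.

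The start sites of these elongases are shown because they are the promoters of the group that a BMAL1 peak covers. The stretches are RefSeq sequences of the build GRCm38.p6, all on the plus strand, from 150 bases before the RefSeq start to 30 bases from it, written 5′ to 3′. RefSeq gives Elovl1 a pair of starts, and whether the RefSeq starts are those behind the authors' distances was not tested, since the files are in mm9. Capitals mark AACGTG, which is CACGTT read on the other strand, an element that differs from the E-box in its last letter.
Elovl6 (chr3:129532236-129532415): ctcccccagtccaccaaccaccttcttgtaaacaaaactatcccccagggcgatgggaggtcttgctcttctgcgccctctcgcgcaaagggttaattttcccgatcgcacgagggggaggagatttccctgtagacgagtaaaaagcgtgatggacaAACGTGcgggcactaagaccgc
Elovl1, first start (chr4:118427943-118428122): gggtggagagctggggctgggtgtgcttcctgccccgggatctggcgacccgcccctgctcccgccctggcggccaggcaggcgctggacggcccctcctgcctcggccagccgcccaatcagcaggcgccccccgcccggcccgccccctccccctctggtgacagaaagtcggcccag
Elovl1, second start (chr4:118429551-118429730): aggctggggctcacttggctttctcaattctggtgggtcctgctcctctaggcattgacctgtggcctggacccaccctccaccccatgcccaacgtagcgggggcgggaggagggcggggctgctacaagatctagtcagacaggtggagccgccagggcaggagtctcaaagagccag

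The Elovl6 promoter held the capital element 8 to 13 bp after the RefSeq start. If that start is the one behind the authors' distance, the element lies within the 50 bp liver peak, whose centre is at 7 bp. That width was the same in 928 of the 991 liver entries after the first 263, so it is not read as a measured extent of binding. Neither Elovl1 stretch held CACGTG or CACGTT. They were also richer in G and C, at 77.2% for the first and 63.3% for the second start, against 55.6% for Elovl6. No match says only that these letters are not in the window.

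The E-box was searched in the full RefSeq windows of 250 bases before to 50 bases from each start, on both strands. Ppara and Acsl1 have 2 start sites each by the authors' distances, and which of them the RefSeq windows cover was not tested. None of the 9 windows of the 7 genes held CACGTG, against 2349 of all 32851 windows (7.15%) and 127 of the 316 windows whose gene had a liver BMAL1 peak within 250 bp (40.2%). Of the 7 genes, Elovl1 and Elovl6 alone had a peak that close. The first of these shares is therefore the one that applies to the other genes. For Elovl1 and Elovl6 it is the second, 40.2%. At either share the windows concerned are too few to read a lack of E-boxes from. By the authors' distances, all peaks of the other genes lay 553 bp or more from a start site, beyond the reach of such windows. For those genes, whether an E-box lies under a BMAL1 peak was not tested. The element CACGTT was found in 2 of the 9 windows, those of Elovl6 and Slc27a2, against 4.68% of all windows and 7.59% of the windows with a close liver peak. It was among several motifs tried, and 2 of 9 is too small a count to read an excess from. In Slc27a2 it lay 210 to 205 bp before the RefSeq start, while the authors' distance puts the peak 553 bp after theirs.

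Fads2 encodes the desaturase that starts the making of long polyunsaturated fatty acids. It is the member on the minus strand, and its liver peak, at chromosome 19, 10178972 to 10179021, lay 3003 bp upstream of the start site. In the RefSeq annotation Fads2 stands between Fads1, on its upstream side, and Fads3. Neither neighbour had a BMAL1 peak to its name. The nearest liver peak of another gene was that of Rab3il1, 86.3 kb away.

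**Figure D1:**
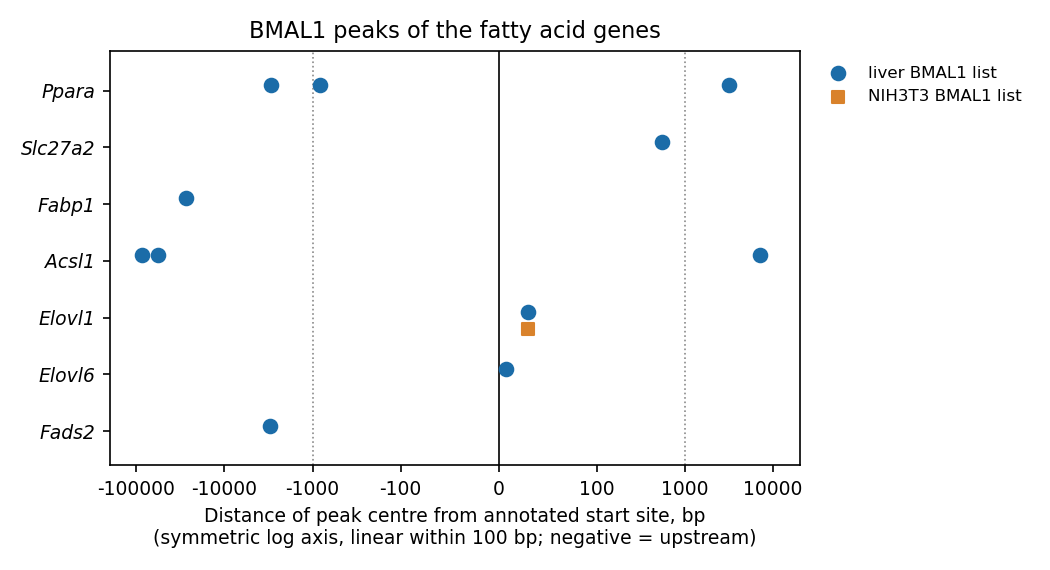
Distance of each BMAL1 peak centre from the annotated start site in bp (symmetric log axis, linear within 100 bp, negative values upstream), by gene; blue circles are peaks of the liver list, the orange square is the peak of the NIH3T3 list, and dotted lines mark 1 kb. Elovl1 and Elovl6 sit on the start site, at 30 and 7 bp, Fabp1 and 2 Acsl1 peaks lie beyond 10 kb upstream, and only Elovl1 has an NIH3T3 peak.

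The peaks of these genes ranged from the start site itself to far upstream. Within 1 kb of the start site lay 4 of the 11 liver peaks (36.4%, 10.9 to 69.2), with 1 each at Elovl6, Elovl1, Slc27a2 and Ppara, against 560 of all 1254 (44.7%). A further 4 lay at 1 to 10 kb, against 289 of 1254 (23.0%), and 3 lay beyond 10 kb, against 405 of 1254 (32.3%). The median distance was 3003 bp for the 11 peaks and 2182 bp for the whole list. Upstream of the start site lay 6 of the 11, against 54.1% of all liver peaks. The interval of the promoter share is wide and includes the share of the whole list, so 11 peaks show neither a difference nor a likeness.

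Most of the group's sites were in the liver list alone. A shared site, meaning peak centres of both BMAL1 lists within 500 bp, was found at 1 of the 11 liver peaks (9.09%, 0.23 to 41.3), that of Elovl1, against 273 of 1254 (21.8%). The NIH3T3 peak of Elovl1 is the same site seen from the other list, where 274 of 463 peaks had a liver partner (59.2%). Counted by genes, 1 of 7 was annotated in both lists, against 193 of the 985 genes of the liver list (19.6%). These shares do not set the group apart from the liver list, in which most genes were also found in liver alone. The first 263 entries of both BMAL1 lists are identical, and Elovl1 is entry 175 of each. The steps by which these lists were put together are unknown, so the Elovl1 site cannot be read as found independently in both contexts. Without those identical entries, 10 liver peaks and 0 NIH3T3 peaks of these genes are left.

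Among the 10 liver-only peaks of the group, 3 (30.0%, 6.67 to 65.2) lay within 1 kb of the start site, against 330 of all 981 liver-only peaks (33.6%). Their median distance was 3080 bp, against 6140 bp for all liver-only peaks and 179 bp for all shared liver peaks. The 3 close ones were Elovl6, Slc27a2 and the middle Ppara peak.

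**Figure D2:**
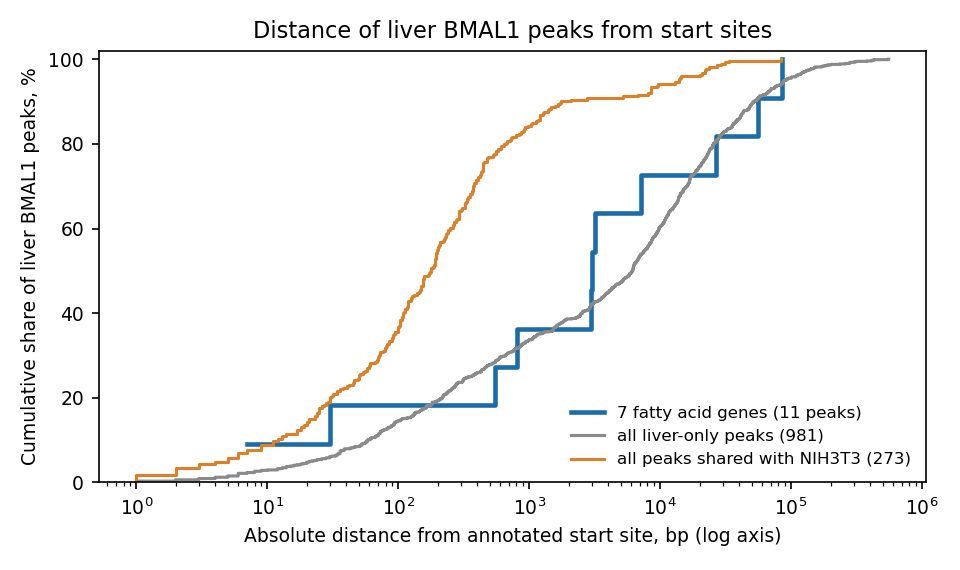
Cumulative share of liver BMAL1 peaks in percent against the absolute distance from the annotated start site in bp (log axis), for the 11 peaks of the 7 genes, all 981 liver-only peaks and all 273 peaks shared with NIH3T3 cells; the 11 peaks are also contained in the other curves. The median is 3003 bp for the 7 genes, 6140 bp for the liver-only peaks and 179 bp for the shared peaks, and the line of the 7 genes moves in 11 steps.

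CLOCK, the partner of BMAL1, had no peak near any of these sites. With a limit of 5 kb between centres, 0 of the 11 liver BMAL1 peaks had a liver CLOCK peak, against 58 of 1254 (4.63%), and 0 of 11 had an NIH3T3 CLOCK peak, against 87 of 1254 (6.94%). For CLOCK of either list the count was 0 of 11, against 117 of 1254 (9.33%) and, among liver-only peaks, 0 of 10, against 29 of 981 (2.96%). A count of 0 of 11 allows a share of up to 27.3% when the limit is set at 3 counts, and 28.5% by the Clopper-Pearson interval, so at this number of peaks a difference from the whole list was not detectable. The Elovl1 peak in NIH3T3 cells also had none, where 120 of 463 NIH3T3 BMAL1 peaks did (25.9%). No other limit below 354 kb would give another count, since the closest CLOCK peak to any member was an NIH3T3 one 354 kb from the Fads2 peak.

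The nearest CLOCK peaks of both lists show how far these genes were from any. For Elovl6 the nearest NIH3T3 CLOCK peak was 356 kb away and the nearest liver CLOCK peak 2433 kb. For Elovl1 the distances were 392 kb to the NIH3T3 list and 3593 kb to the liver list. The 3 Ppara peaks stood 809 to 852 kb from the nearest NIH3T3 CLOCK peak and 3921 to 3936 kb from the nearest liver one. For Fabp1 the nearest liver CLOCK peak was 2135 kb away and the nearest NIH3T3 one 6006 kb. The median to the nearest CLOCK peak of either list was 848 kb for the 11 peaks and 461 kb for all liver BMAL1 peaks. Among liver-only peaks it was 850 kb for the 10 of the group and 547 kb for all 981. The 3 peaks of Ppara gave similar distances, as did the 3 of Acsl1, and the medians were not tested against each other. The lists differ in length, with 439 liver and 1016 NIH3T3 CLOCK peaks, and distances to a shorter list tend to be larger, so they are not compared between the lists. A missing CLOCK peak is not read as absence of CLOCK, since few liver BMAL1 peaks had one at all and the pooled liver CLOCK sample has no stated time.

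**Figure D3:**
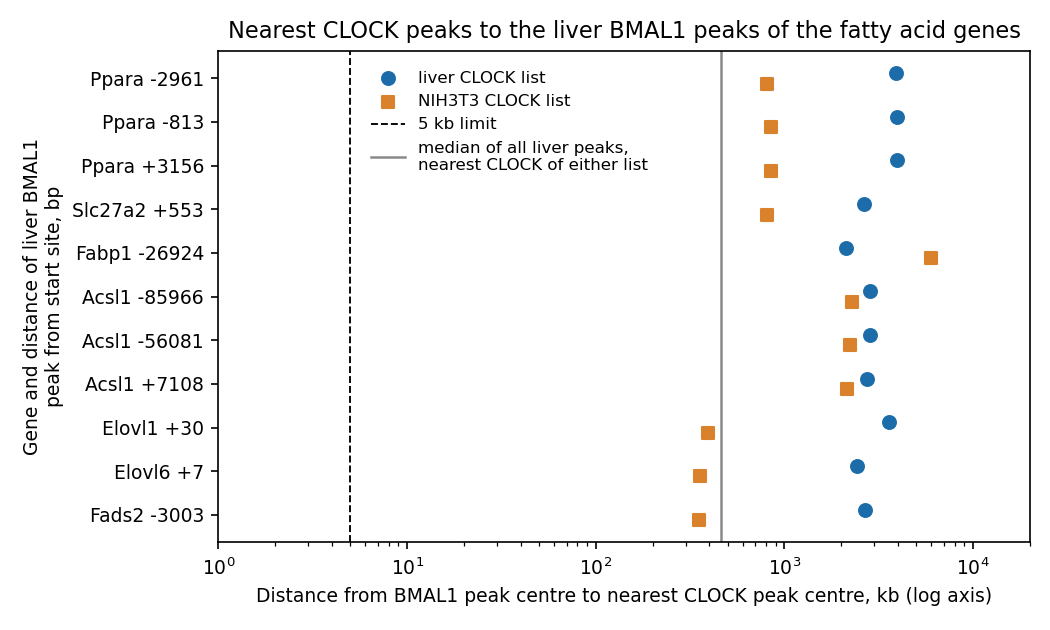
Distance in kb (log axis) from each of the 11 liver BMAL1 peaks to the nearest CLOCK peak of the liver list (blue circles) and of the NIH3T3 list (orange squares); rows give the gene and the distance of the BMAL1 peak from the start site in bp. All points lie at 354 kb or more, far to the right of the dashed 5 kb limit; the grey line is the median of all liver BMAL1 peaks to the nearest CLOCK peak of either list, 461 kb.

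The wider pathway was described with a list of 90 genes in 9 roles, which contains the 7 members. A BMAL1 peak in either list was annotated to 12 of the 90 genes (13.3%), against 890 of the 21900 protein-coding symbols of RefSeq, matched by current symbol (4.06%). Since the 7 members were put on the list for having a peak, the count of the rest is the one to read, and it was 5 of 83 (6.02%). The list was drawn up with earlier results of these data known, and nothing is tested with it.

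The remaining genes with a peak belong to fatty acid oxidation and to known responses to PPARalpha. Plin2, which encodes a coat protein of lipid droplets, had a liver peak 3 bp upstream of its start site and none in NIH3T3 cells. Angptl4, a secreted inhibitor of lipoprotein lipase, had the same entry in both lists, 382 bp downstream of the start site. Acaa1a, a peroxisomal thiolase, had a liver peak 1535 bp downstream, and Abcd3, a peroxisomal transporter, had a liver peak 41154 bp upstream. Acaa2, a mitochondrial thiolase, was the single pathway gene found in NIH3T3 cells alone, 127 bp upstream of the start site. None of these peaks had a CLOCK peak within 5 kb either, and the closest was 240 kb away, at Plin2.

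The families of the members each hold at least 1 gene with a peak by the choice of members, and 4.06% of all RefSeq protein-coding symbols had a peak, so the family counts are given as a description. In the Elovl family 2 of 7 genes had a liver peak and 1 of 7 an NIH3T3 peak. In each of the other families a single gene had a liver peak and none an NIH3T3 peak. These were Ppara of 3 Ppar genes, Slc27a2 of 6 Slc27a genes, Fabp1 of 6 Fabp genes listed, Acsl1 of 5 Acsl genes and Fads2 of 3 Fads genes. Partners of PPARalpha such as Rxra and Ppargc1a had no annotated peak, nor did any of the 7 genes listed for fatty acid synthesis, among them Fasn, Acaca and Srebf1. Of the 13 genes listed for mitochondrial oxidation, Acaa2 alone had a peak, so Cpt1a, the entry enzyme of that pathway, had none. With 4.06% of all genes having a peak, counts of 0 of 7 and 1 of 13 set neither role apart.

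**Figure D4:**
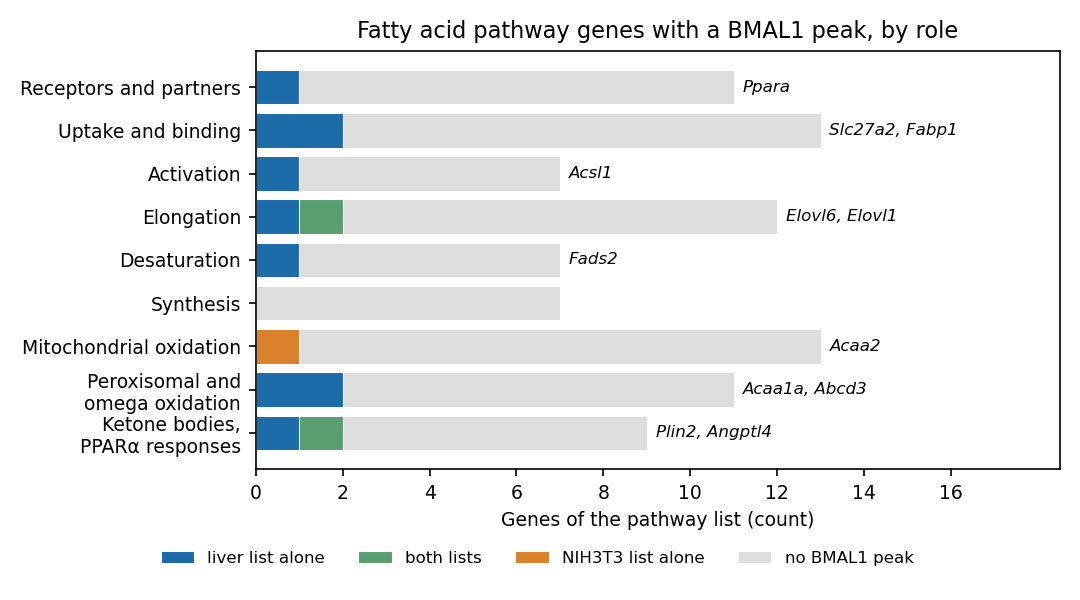
Number of genes of the 90-gene fatty acid pathway list in each role, split into genes with a BMAL1 peak in the liver list alone (blue), in both lists (green), in the NIH3T3 list alone (orange) and without a peak (grey); genes with a peak are named beside the bar. Each role holds 0 to 2 genes with a peak, synthesis has 0 of 7, and Elovl1 and Angptl4 are the genes in both lists.

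The binding pattern of each member was set beside all 1137 genes by its number of peaks in each list, the distance class of its nearest peak and the presence of CLOCK within 5 kb. The pattern of Elovl6 and Slc27a2, a single liver peak within 1 kb without CLOCK, was that of 244 further genes for each, among them Plin2. Fabp1, with a single liver peak beyond 10 kb, shared its pattern with 251 other genes, among them Abcd3. The pattern of Fads2, a single liver peak at 1 to 10 kb, was found in 179 others, among them Acaa1a, and that of Elovl1 in 75, among them Angptl4. Ppara and Acsl1 had less frequent patterns, with 5 and 2 other genes, none of them on the pathway list. The number of liver peaks entered this comparison, so it describes how common each pattern was and does not test it.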

How the data were processed

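The values were 4 peak lists deposited by the authors: chromosome, start and end and, for BMAL1, a gene and a signed distance in bp to its start site. Per the submitters' processing notes, Bowtie, SAMtools and bedtools were used with the build mm9, in roles not stated there. Those notes name no peak caller or threshold. In the NIH3T3 CLOCK list the gene column was left out.

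Peaks were taken by gene symbol, and peaks of different lists were compared by the distance between centres. The sign of the distance was checked on genes with several peaks: with negative values as upstream, 40 of 62 plus-strand and 32 of 54 minus-strand genes gave a single start within 3 bp, against 0 with the opposite sign. Of the pathway symbols, 90 of 90 matched RefSeq names (assembly GRCm38.p6) or synonyms. All 7 members, and all pathway genes with a peak, are named. Members and lists were chosen with earlier results of these data known, so no test was run. Counting was checked on simulated peaks. Alternatives were other distance limits, joined peaks and other motifs. The work was done with pandas 2.3.3 and NumPy 2.4.6 under Python 3.11.15, intervals with SciPy 1.17.1 and plots with matplotlib 3.10.9.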

Additional observations from a re-analysis of the deposited data

How the results depend on the processing

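The count of liver peaks of the 7 genes was 11 with peaks closer than 1 kb joined, 8 within 10 kb of the start site and 10 without entries identical in both BMAL1 lists, the last chosen after seeing the data. Without identical entries the NIH3T3 peaks numbered 0, and genes with a shared site 0, beside 1 of each with all entries, because the Elovl1 site is such an entry. Peaks near the start site numbered 2 within 200 bp (27.1% of all liver peaks) and 7 within 5 kb (56.7%), beside 4 within 1 kb. The count with CLOCK was 0 at each limit tried up to 20000 bp. Genes with the motif numbered 0 for CACGTG, 2 for CACGTT, 2 for either CACGTG or CACGTT (11.4% of all windows, 44.6% of those with a close liver peak) and 4 for CACGNG, which contains CACGTG and is common (27.5% and 70.3%). Pathway genes with a peak within 10 kb numbered 10. No paired analysis was possible because the lists hold no values per sample and no test was run. With 11 peaks and no heights, only large departures from the whole list could be seen.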

Other observations

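PPARalpha is known to bind, with RXR, pairs of the element AGGTCA that are 1 base apart. No such pair with these exact letters was found in the 9 promoter windows of the 7 genes, against 13 of all 32851 windows (0.0396%). At so low a share a count of 0 in 9 windows was nearly certain beforehand. It therefore does not bear on whether these promoters hold PPARalpha sites. The single element AGGTCA, read on both strands, was in 4 of the 9 windows, against 16.3% of all windows and 15.2% of those with a close liver peak. The 9 windows are few and a difference from these shares was not tested, so no excess is read from the count. Fabp1 held it at 67 to 62 bp and at 9 to 4 bp before the start. Slc27a2 held it at 220 to 215 bp before the start, next to its CACGTT element at 210 to 205 bp. In Elovl6 it lay 193 to 188 bp before the RefSeq start, and in Elovl1 95 to 90 bp before the second RefSeq start. The search was added after other results were known, and the matches are given as letters found, not as binding sites.

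Ppara had no CACGTG or CACGTT in its RefSeq window. It held CACGCG, a form of the common CACGNG, at 110 to 105 bp before and at 43 to 48 bp after the start. CACGNG was also found for Acsl1, Elovl6 and Slc27a2, and in 27.5% of all windows, so it was not particular to Ppara. The authors' distances put the 3 BMAL1 peaks of Ppara 813 bp or more from their own start sites. The liver peak of another gene nearest to Ppara was annotated to Mirlet7c-2, a let-7 microRNA gene, 60.2 kb from the first Ppara peak.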
